A study of Mus musculus with 8 samples.

Results

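A set of 8 genes of sensory ganglia was followed in the embryonic spinal cords of mice lacking Nfix: Pirt, Trpv1, P2rx3, Avil, Prph, Runx1, Runx3 and Erbb3. They were chosen from the readout itself. Pirt was taken up for its higher signal in Nfix-/- cords, and the other 7 as ganglion genes whose values by array were already known, so their genotype differences are given as a description. No p is given for them, and the number of them past the threshold of the fit over all clusters stands only beside the share of all clusters that passed. Each gene was read from the transcript cluster, the set of probes that the array design assigns to 1 transcribed region, that carried its symbol alone in the platform annotation. All 8 genes were found, among 30176 gene symbols and 65956 transcript clusters.

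The samples were whole spinal cords of C57Bl/6J mouse embryos at E14.5. There were 4 arrays from Nfix-/- (knockout) embryos and 4 from wild-type (Nfix+/+) embryos, all of heterozygous parents and each group labelled as biological replicates 1 to 4. The study's text gives fewer animals of each genotype than there are arrays, so it is not settled that each array is a separate animal, and n counts arrays. The labels name no other allele and no treatment, and do not say which part of Nfix is deleted. The cords were dissected whole, and the labels do not say whether ganglia or nerve roots stayed attached.

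Dorsal root ganglia lie beside the spinal cord and hold the cell bodies of sensory neurons, which arise from the neural crest and not from the neural tube. Their axons enter the dorsal horn, while peripheral branches reach skin, muscle and viscera. Neurons for pain, itch, temperature, touch and limb position separate during embryonic development by the transcription factors, growth factor receptors and channels they take up, and Schwann cell precursors travel along their axons. In a bulk sample, more cells of a type and more RNA of a gene per cell cannot be told apart.

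Nfix itself was lower in the Nfix-/- arrays, which checks the labels. Its log2 signals were 8.90, 8.88, 8.83 and 8.81 in Nfix-/- cords, against 9.36, 9.18, 9.25 and 9.19 in Nfix+/+ cords. The groups did not overlap, and the difference of means, Nfix-/- minus Nfix+/+, was -0.39 on the log2 scale. In this direction 522 clusters exceeded a fold of 1.5 upward and 829 downward with an adjusted p under 0.05. The study states its counts of higher and lower genes in the opposite direction.

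One array stood apart before any gene was compared. The probe sets labelled as negative controls reached a median log2 signal of 4.60 at most in Nfix-/- cords (lowest 4.34). What these probe sets match was not examined here. In Nfix+/+ cords their median reached 4.88 (lowest 4.33), the highest being Nfix+/+ replicate 2. That array gave the lowest signal of all 8 in 22.8% of clusters, and in 32.1% of the 11778 clusters above background. A cluster was counted as above background where it exceeded, on at least 4 arrays, the 95th percentile of those control signals (7.27 to 7.59). Of those 11778 clusters, 83.9% had a higher mean in Nfix-/- cords, with a median log2 difference of 0.09, against 0.02 over all clusters. Of 10 listed genes of spinal cord tissue, 7 were above background, among them the neuronal genes Elavl3 and Dcx and the progenitor gene Sox2. The mean of the 10 was 8.83 to 8.87 in Nfix-/- cords and 8.79 to 8.84 in Nfix+/+ cords.

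Promoter sequences were available from RefSeq for 5 of the 8 genes. They are shown for those that carry a RUNX motif, because 2 of the genes followed encode RUNX factors. RUNX factors bind TGTGGT, which reads ACCACA on the other strand. The stretch searched was the 250 bases before each annotated start, on both strands, and it held the motif in 3 of 7 promoters of Avil, Trpv1, Prph, Runx1 and Runx3, against 4614 of 32851 promoters of the same length in the annotation. Capitals mark the motif in the sequences that follow, which are written 5′ to 3′ on the strand of the gene. The Avil promoter lies on the plus strand at chr10:127000459-127000708 of GRCm38.p6, that of Trpv1 on the plus strand at chr11:73233899-73234148, and the upstream one of the 2 Runx3 promoters on the plus strand at chr4:135120395-135120644.
Avil: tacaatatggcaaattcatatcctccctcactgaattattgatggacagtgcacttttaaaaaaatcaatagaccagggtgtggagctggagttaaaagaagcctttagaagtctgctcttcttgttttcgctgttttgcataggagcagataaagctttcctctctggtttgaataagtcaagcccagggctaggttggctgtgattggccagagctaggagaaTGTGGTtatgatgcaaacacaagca
Trpv1: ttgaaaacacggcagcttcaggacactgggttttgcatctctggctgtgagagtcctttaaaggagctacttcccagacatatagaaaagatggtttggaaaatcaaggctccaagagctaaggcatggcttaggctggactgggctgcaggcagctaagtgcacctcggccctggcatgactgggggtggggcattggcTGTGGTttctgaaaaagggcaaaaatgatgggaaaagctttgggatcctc
Runx3: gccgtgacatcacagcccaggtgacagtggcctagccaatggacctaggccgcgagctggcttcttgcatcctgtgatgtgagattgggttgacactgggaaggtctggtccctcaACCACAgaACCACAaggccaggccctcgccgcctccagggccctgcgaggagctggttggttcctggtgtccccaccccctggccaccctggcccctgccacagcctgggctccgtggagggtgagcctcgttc
Avil and Trpv1 each held 1 match, starting 25 and 50 bases before the annotated start that follows the stretch. Runx3 held 2 matches, starting 134 and 126 bases before its own. For Avil that start is an internal one, since the span of the gene begins upstream of the stretch, at chr10:127000065. The stretch of Prph, chr15:99054924-99055173, likewise lies inside the span of its gene, which begins at 99053579. The sequence TTGGC, the core of sites for the nuclear factor I family to which NFIX belongs, occurred on either strand in 6 of the 7 promoters, against 41.5% of all promoters. In Trpv1 it ends right before the RUNX motif, and the 2 motifs do not overlap. Neither motif was found in the Prph promoter. TAATTA, a core of homeodomain sites, was found in 0 of the 7 and in 4.84% of all. These are matches of letters, and binding was not measured. Promoters of Pirt, P2rx3 and Erbb3 were not used here.

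Pirt was higher in every Nfix-/- cord than in any Nfix+/+ cord. It encodes a small membrane protein of sensory neurons that binds phosphoinositides and regulates TRP channels such as TRPV1. The gene lies at chr11:66911905-66929877 of GRCm38.p6. The log2 signals were 8.31, 8.41, 8.36 and 8.29 in Nfix-/- cords, against 7.79, 7.23, 7.83 and 8.02 in Nfix+/+ cords. The Nfix-/- arrays lay within 0.12 of each other, while the Nfix+/+ arrays spread over 0.80, with replicate 2 far below and replicate 4 nearest to the Nfix-/- arrays. The mean was 8.34 ± 0.0527 in Nfix-/- cords and 7.72 ± 0.342 in Nfix+/+ cords (SD, n = 4 each), a log2 difference of 0.62 (standard error 0.150), or 1.54-fold. Pirt was above the negative-control percentile on 7 arrays, all but Nfix+/+ replicate 2. Without that array the difference was 0.46 (standard error 0.0694), and without Nfix+/+ replicate 4 it was 0.73.

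Both of the other genes of sensory membranes had higher means in Nfix-/- cords, and their groups overlapped. P2rx3, at chr2:84996549-85037108, encodes an ATP-gated channel of nociceptors. Its log2 signals were 7.99, 8.05, 8.10 and 8.05 in Nfix-/- cords and 7.59, 7.34, 7.63 and 8.09 in Nfix+/+ cords. Nfix+/+ replicate 4 lay among the Nfix-/- arrays and the other 3 Nfix+/+ arrays below all of them. The difference of means was 0.38 (standard error 0.137). Trpv1, at chr11:73234149-73261322, encodes the channel opened by heat and capsaicin. It gave 6.68, 6.62, 6.64 and 6.51 in Nfix-/- cords and 6.41, 6.21, 6.50 and 6.63 in Nfix+/+ cords, a difference of 0.17 (standard error 0.0893). On all 8 arrays Trpv1 was below the negative-control percentile, so its level was not separated from the signals of those controls.

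The genes of the neuronal cytoskeleton were likewise lowest in Nfix+/+ replicate 2. Avil, at chr10:127000065-127020994, encodes advillin, an actin-binding protein of the gelsolin and villin family found in sensory neurons. Its log2 signals were 8.21, 8.36, 8.48 and 8.12 in Nfix-/- cords and 7.94, 7.62, 7.92 and 8.20 in Nfix+/+ cords. Only Nfix+/+ replicate 4 reached into the range of the Nfix-/- arrays, and the difference of means was 0.37 (standard error 0.126). Prph, at chr15:99053579-99058978, encodes peripherin, an intermediate filament of neurons with axons outside the central nervous system, motor neurons of the cord included. It gave 10.01, 10.12, 10.12 and 9.96 in Nfix-/- cords and 9.94, 9.54, 9.91 and 10.05 in Nfix+/+ cords. The groups overlapped through Nfix+/+ replicate 4, and without Nfix+/+ replicate 2 the difference of 0.19 (standard error 0.106) came to 0.09.

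Runx1, Runx3 and Erbb3 overlapped between the genotypes. Runx1 shapes nociceptors and Runx3 proprioceptive neurons. Runx1, at chr16:92601466-92826074, gave 7.04, 7.17, 7.08 and 6.94 in Nfix-/- cords and 6.81, 6.56, 6.91 and 7.07 in Nfix+/+ cords, a difference of 0.22 (standard error 0.106). Runx3, at chr4:135120645-135177990, gave 6.41, 6.16, 6.29 and 6.04 in Nfix-/- cords and 6.13, 5.87, 6.18 and 6.16 in Nfix+/+ cords, a difference of 0.14 (standard error 0.0994). Both genes were above the negative-control percentile on 0 of 8 arrays. Erbb3, at chr10:128567523-128589635, encodes the neuregulin receptor on which Schwann cell precursors depend. Its log2 signals were 7.42, 7.35, 7.36 and 7.15 in Nfix-/- cords and 7.19, 6.87, 7.32 and 7.32 in Nfix+/+ cords, and it was above the percentile on 4 arrays. The overlap was wide, with 3 Nfix+/+ arrays above Nfix-/- replicate 4, and the difference was 0.15 (standard error 0.108).

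**Figure D1:**
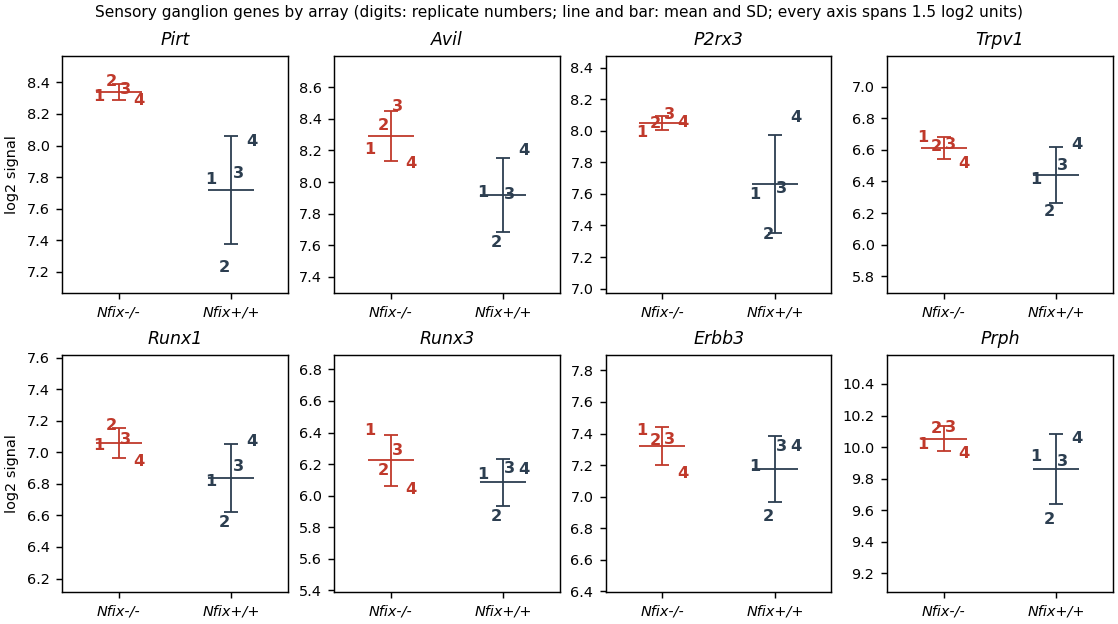
Log2 signal of each of the 8 genes by array, with Nfix-/- at the left and Nfix+/+ at the right of each panel; digits are replicate numbers, and line and bar give mean and SD (n = 4). Nfix+/+ replicate 2 is the lowest point in all 8 panels, and the 2 genotypes are apart in Pirt alone.

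All 8 genes had a higher mean in Nfix-/- cords, as had 83.9% of the clusters above background, a class that holds 5 of the 8. Their median difference was 0.21, and 1 of 8, Pirt, passed an adjusted p under 0.05 in the fit over all clusters, where 11.5% of clusters passed in that direction (14.1% of those above background). Nor did the genotypes overlap in Pirt, as in 16.1% of all clusters with Nfix-/- above. Pirt did not pass in 4 of 16 alternatives, which were quantile normalization, the one-way test named in the study's methods, and the fits without Nfix-/- replicate 2 or 3. Nothing is read from these counts, since the genes were chosen on this comparison. Without Nfix+/+ replicate 2 the median difference was 0.11 and Pirt was still the 1 gene that passed, against 11.3% of clusters. The differences of Trpv1, Runx1, Runx3, Erbb3 and Prph were then 0.10, 0.13, 0.07, 0.05 and 0.09, each smaller by more than 1.5 times, while Avil and P2rx3 were at 0.27 and 0.28. Without Nfix+/+ replicate 4 the median was 0.28 and 3 of 8 passed, Pirt, Avil (0.47) and P2rx3 (0.53), against 7.27%. Cyclic loess between arrays, which brought the median difference of the clusters above background to -0.01, left Pirt at 0.54, Avil at 0.28, P2rx3 at 0.30 and the median of the 8 at 0.15. Prph and Erbb3 were then both at 0.08, smaller by more than 1.5 times.

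**Figure D2:**
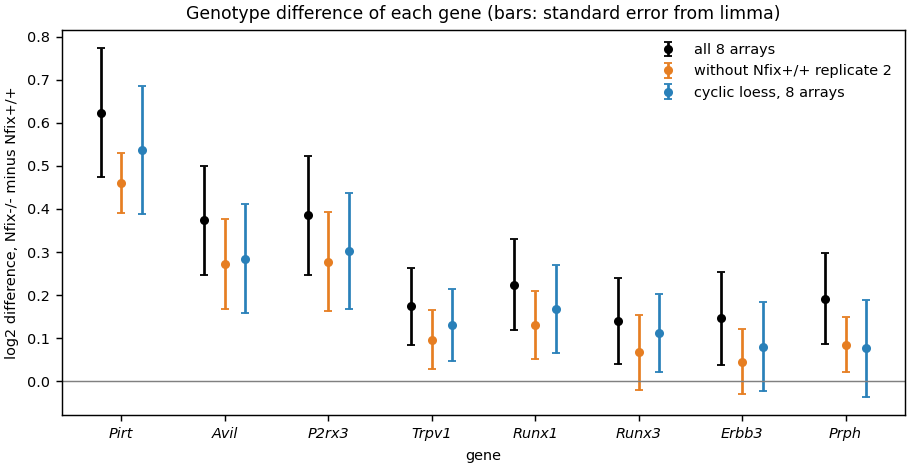
Log2 difference of each gene, Nfix-/- minus Nfix+/+, with standard errors from limma, for all 8 arrays, without Nfix+/+ replicate 2 and after cyclic loess. All 8 values lie above 0 in each of the 3 series, from 0.14 to 0.62 with all arrays, and most move toward 0 without Nfix+/+ replicate 2.

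The 8 genes varied together from array to array within a genotype. Each value was set against the mean of its genotype, so that the genotype difference was taken out. Nfix+/+ replicate 2 was lowest of all 8 arrays in 8 of 8 genes, against 22.8% of all clusters and 32.1% of those above background. Nfix+/+ replicate 4 was the highest Nfix+/+ array in 6 of 8 and Nfix-/- replicate 4 the lowest Nfix-/- array in 7 of 8. No share over all clusters is given for these 2 counts, so nothing is read from them. Nfix-/- replicate 4 was the lowest of all 8 arrays in 15.7% of all clusters, the largest share of any Nfix-/- array. Pirt, for example, deviated from its genotype mean by -0.49 in Nfix+/+ replicate 2 and by 0.31 in Nfix+/+ replicate 4, and by -0.05 to 0.07 in the 4 Nfix-/- arrays. The 28 pairs of genes had a median Pearson's r of 0.864 over the 8 deviations, with 0.441 for P2rx3 with Runx3 as the lowest and 0.971 for Pirt with Prph as the highest. Without Nfix+/+ replicate 2 the median was 0.683, and the pairs ran from -0.0311 for P2rx3 with Runx3 to 0.968 for Avil with Prph. Runx1 stayed near Pirt (0.940 with that array and 0.937 without it). Runx3 and Erbb3 stayed near each other (0.902 and 0.839), while Runx3 with Pirt went from 0.642 to 0.0509 when the array was left out. These coefficients are descriptions over arrays that share their processing, and the genes were known to move together when they were chosen.

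**Figure D3:**
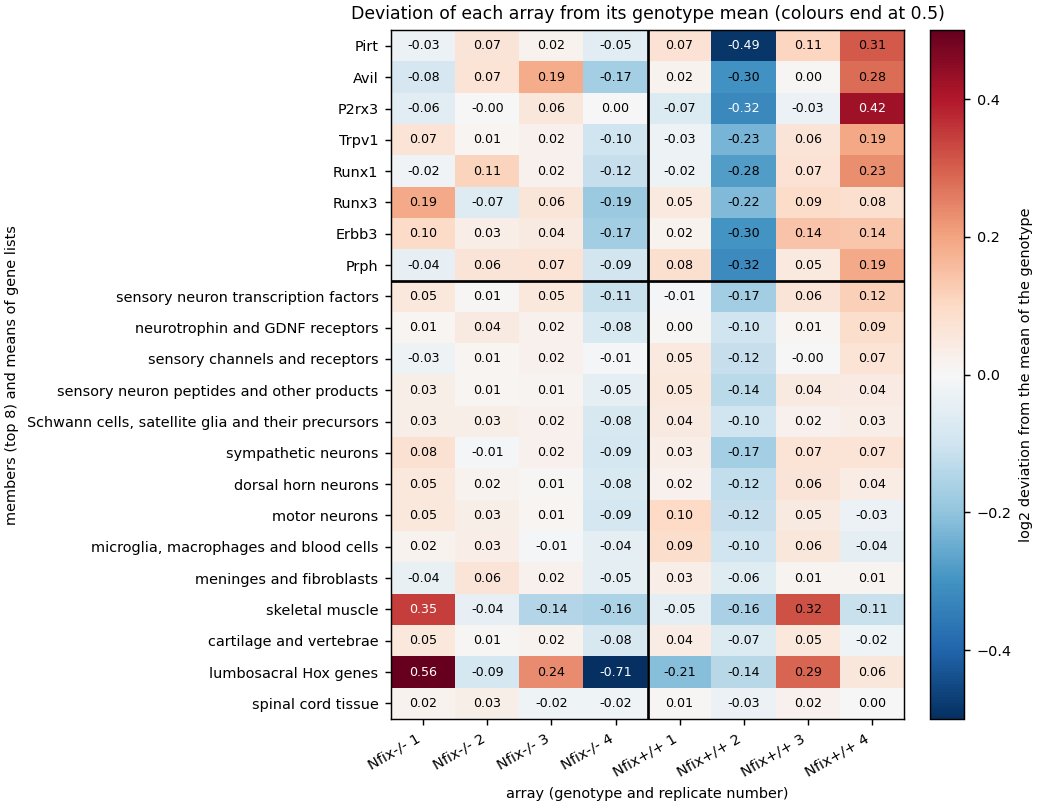
Log2 deviation of each array from the mean of its genotype for the 8 genes and for the means of 14 gene lists, with the Nfix-/- arrays left of the Nfix+/+ arrays. The column of Nfix+/+ replicate 2 is below 0 in every row, at -0.49 for Pirt; skeletal muscle and lumbosacral Hox genes follow another order of arrays.

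Among 6623 named genes above background, those whose deviations were most like those of Pirt included known genes of nociceptors. Prdm12, which encodes a regulator needed for nociceptive neurons to form, had an r of 0.985 (0.984 without Nfix+/+ replicate 2, when it ranked 4). Scn10a, which encodes the sodium channel Nav1.8 of nociceptors, had 0.966, and Prph 0.971. Without Nfix+/+ replicate 2 Scn10a ranked 31 and Prph 193. The other 7 of the first 10 were Rab9b, Snx12, Sap30l, Wasf2, Fam102b, Tceal8 and Cttnbp2nl, which act in membrane traffic, transcription or the cytoskeleton of many cells or have roles not given here. Rab9b ranked first at 0.987, with Nfix-/- arrays that spanned 0.01. Without Nfix+/+ replicate 2 it ranked 100, and Wasf2 ranked 30. The mean of the 8 genes was most like Isl2 (0.991), which encodes a homeodomain factor of sensory and motor neurons, and Gfra3 (0.977), which encodes the artemin receptor of nociceptors, ranked 5. Sap30l, Fbxo10, Fam102b, Antxr2, Kcnh6, P4ha3, Prph and Crkl made up the rest of that list. The coefficient with Pirt was over 0.8 for 11 of 23 listed sensory neuron genes outside the 8, or 47.8%, against 5.07% of all the genes, and its median was 0.7996 against 0.182. Without Nfix+/+ replicate 2 the medians were 0.485 and 0.107. These are values across genes of the same 8 arrays, which are not independent replicates.

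**Figure D4:**
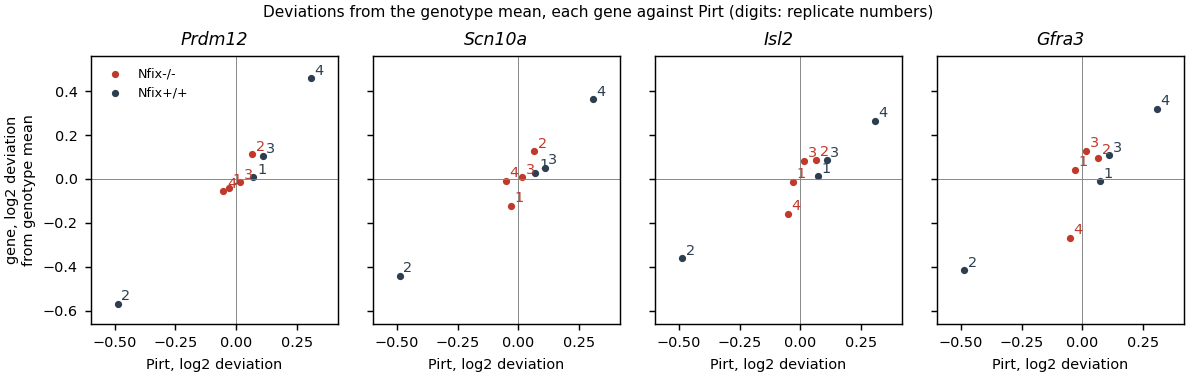
Log2 deviation from the genotype mean of Prdm12, Scn10a, Isl2 and Gfra3 against that of Pirt, with digits for replicate numbers (Nfix-/- red, Nfix+/+ dark). Nfix+/+ replicates 2 and 4 lie at the 2 ends in all 4 panels, at -0.49 and 0.31 for Pirt, and the other 6 arrays lie between them along that axis.

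Prdm12 and Scn10a illustrate how these nociceptor genes stood by genotype. Prdm12 had log2 signals of 8.55, 8.70, 8.57 and 8.53 in Nfix-/- cords and of 8.29, 7.72, 8.39 and 8.75 in Nfix+/+ cords. The highest and the lowest of the 8 values were both Nfix+/+, and the difference of 0.30 did not pass (adjusted p = 0.281 from limma). Scn10a gave 7.94, 8.19, 8.07 and 8.06 in Nfix-/- cords and 7.74, 7.27, 7.76 and 8.08 in Nfix+/+ cords. Its groups overlapped through Nfix+/+ replicate 4, and the difference of 0.35 did not pass (adjusted p = 0.130). Rab9b, first by likeness to Pirt and in none of the sensory lists, did not overlap and rose by 0.25 (adjusted p = 0.00526 from limma). It also passed without Nfix+/+ replicate 2 (adjusted p = 0.00983) and after cyclic loess (adjusted p = 0.0175). Tceal8 and Cttnbp2nl did not overlap either, but did not pass (adjusted p = 0.0510 and 0.181).

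Sensory neuron genes outside the 8 were tested for the genotype difference in 4 lists. Of 46 measured genes, 3 were higher and 2 lower in Nfix-/- cords at an adjusted p under 0.05 (limma, Benjamini-Hochberg over all clusters), or 6.52% and 4.35%, against 11.5% and 10.5% of all clusters (22.0% in either direction). The median difference of the 46, of which 23 were above background, was 0.09. It was 0.02 over all clusters and 0.09 over those above background. The 46 mix genes above and below background, so their median is not a like comparison with that second value. The differences of the 23 above background ran from 0.03 to 0.36, all upward, as were 83.9% of clusters above background. Their own median is not given. Without Nfix+/+ replicate 2 the counts were 2 higher and 2 lower, and without Nfix+/+ replicate 4 they were 4 and 1. The 23 that were above background on at least 4 arrays held 0 of the 5 calls.

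By role, the sensory neuron transcription factors gave no call. All 8 measured had a higher mean in Nfix-/- cords, with a median of 0.10. Of these, 0 passed in limma, with the methods' one-way test or with array weights. Without Nfix+/+ replicate 4, 1 passed, Isl1 (adjusted p = 0.0400 from limma). Over all 8 arrays only 1 was at an unadjusted p under 0.05. That gene was Tlx3, a homeodomain factor of dorsal horn and some sensory neurons, with 7.67, 7.56, 7.59 and 7.53 in Nfix-/- cords and 7.38, 7.14, 7.52 and 7.50 in Nfix+/+ cords (difference 0.20, adjusted p = 0.120). Its groups did not overlap. Isl1, a LIM homeodomain factor of sensory and motor neurons, had a difference of 0.21 (adjusted p = 0.140) and overlapped.

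The 8 neurotrophin and GDNF receptors, which set the trophic needs of the sensory classes, also had 0 calls by limma, the one-way test and array weights, and 0 at an unadjusted p under 0.05. Ret was at 0.16 (adjusted p = 0.147) and Ngfr, the low-affinity neurotrophin receptor, at 0.19 (adjusted p = 0.181). Gfra3 gave 8.30, 8.36, 8.39 and 7.99 in Nfix-/- cords and 7.97, 7.57, 8.09 and 8.30 in Nfix+/+ cords, a difference of 0.28 (adjusted p = 0.234). Its order of arrays followed that of the 8 ganglion genes, lowest in Nfix+/+ replicate 2 and, within Nfix-/-, in replicate 4.

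Among 16 sensory channels and receptors, 2 rose and 1 fell. Mrgprx1, which encodes an itch receptor, gave 5.15, 5.33, 5.32 and 5.47 in Nfix-/- cords and 5.07, 4.65, 4.53 and 4.79 in Nfix+/+ cords (difference 0.56, adjusted p = 0.0126), without overlap. Scn11a, which encodes the sodium channel Nav1.9, rose by 0.44 (adjusted p = 0.0434) with overlapping groups. Mrgpra3, of the same receptor family as Mrgprx1, fell by 0.27 (adjusted p = 0.0272). Mrgprx1 passed in all 15 alternatives it entered, and Scn11a and Mrgpra3 in 7 each, with Scn11a at an adjusted p of 0.0626 without Nfix+/+ replicate 2. These 3 genes were below the negative-control percentile on all 8 arrays. The 4 channel genes above background, Scn9a (0.29), Piezo2 (0.29), Scn10a (0.35) and Cacna1h (0.05), did not pass, at adjusted p values of 0.0912, 0.0955, 0.130 and 0.492.

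Among 14 peptides and other products, 1 rose and 1 fell, both also below the percentile on 8 arrays. Thy1, a surface protein of many neurons, was at 6.81, 6.78, 6.94 and 6.77 in Nfix-/- cords and 6.64, 6.67, 6.61 and 6.65 in Nfix+/+ cords, a rise of 0.18 (adjusted p = 0.0361). Ctxn3, a small membrane protein, fell by 0.27 (adjusted p = 0.0233). Neither pair of groups overlapped, and of 15 alternatives Thy1 passed in 6 and Ctxn3 in 8. Tubb3, a tubulin of neurons at large, was at 0.13 without overlap (adjusted p = 0.0598) and at 0.00 after cyclic loess. Gal, which encodes the peptide galanin, had a difference of 0.36 (adjusted p = 0.121), and 10 of the 14 were lowest in Nfix+/+ replicate 2.

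The glia of the ganglia, read beside Erbb3, gave 0 calls of 13 in limma. At an unadjusted p under 0.05 there were 4, and 1 passed in the one-way test and 1 with array weights. Art3, of satellite glia, was at 0.15 (adjusted p = 0.0592) and Egr2, the regulator of myelinating Schwann cells, at -0.15 (adjusted p = 0.0787). Both passed after cyclic loess (adjusted p = 0.0223 and 0.0257 from limma), in opposite directions. Both were below the negative-control percentile on all 8 arrays. The Schwann lineage gene Sox10, also of oligodendrocytes, gave 7.66, 7.61, 7.67 and 7.48 in Nfix-/- cords and 7.54, 7.18, 7.54 and 7.44 in Nfix+/+ cords. As in Erbb3, Nfix+/+ replicate 2 was its lowest array, and the difference of 0.18 did not pass (adjusted p = 0.185).

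Relatives and partners of the 8 genes gave 1 call of 20 measured, upward. Cbfb, which encodes the subunit that RUNX proteins bind DNA with and is used by many cells, had log2 signals of 8.49, 8.45, 8.47 and 8.44 in Nfix-/- cords and of 8.25, 8.08, 8.20 and 8.39 in Nfix+/+ cords. It was above background on 8 arrays, its groups did not overlap, and it rose by 0.23 (adjusted p = 0.0352). The difference did not pass without Nfix+/+ replicate 2 (0.19, adjusted p = 0.0529) or after cyclic loess (0.14, adjusted p = 0.164), and passed in 4 of 16 alternatives. Trpv2, a relative of Trpv1, was at 0.15 (adjusted p = 0.0781) and P2rx4, a relative of P2rx3, at 0.11 (adjusted p = 0.114), which did not pass, although the groups of neither gene overlapped.

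**Figure D5:**
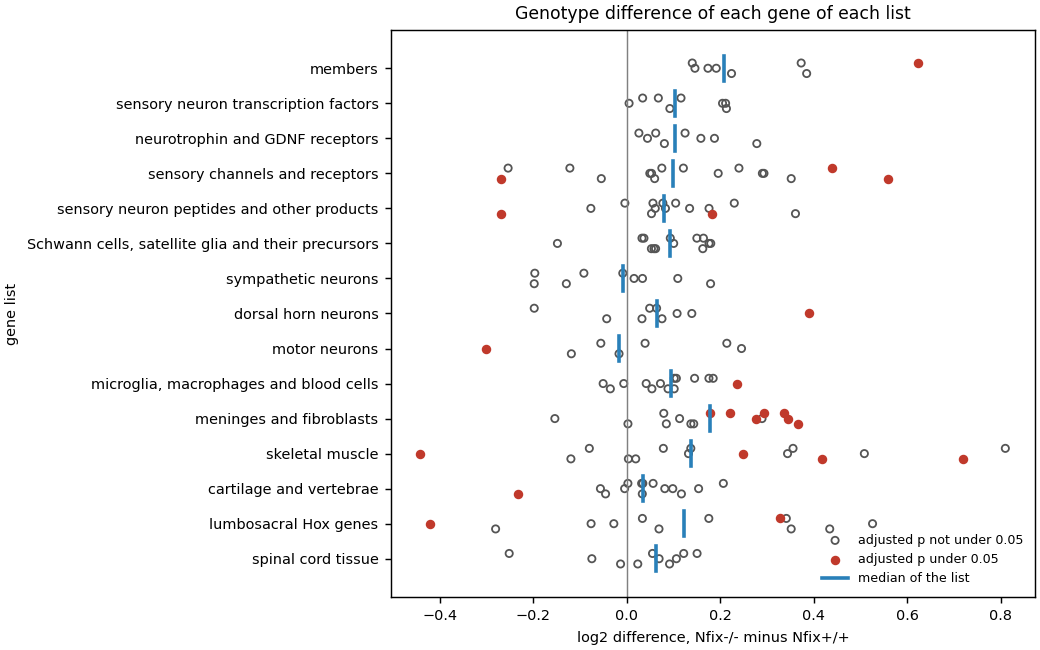
Log2 difference, Nfix-/- minus Nfix+/+, of every gene in the 8 chosen genes and in 14 gene lists; filled red points passed an adjusted p under 0.05, and blue lines are medians. The 8 genes lie between 0.14 and 0.62, and the calls of the 4 sensory lists are 3 above and 2 below 0.

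Pirt was also set against list means over the 8 arrays, as 1 of 15 such relations. With the mean of the 16 sensory channels and receptors, Pearson's r was 0.975 and Spearman's rho 0.929, and leaving out the 2 arrays farthest from the median gave an r of 0.932. The genotypes did not overlap in either measure, since the list mean was 6.01 to 6.06 in Nfix-/- cords and 5.80 to 5.98 in Nfix+/+ cords, so these coefficients hold the genotype difference and are given without a p. High values were not particular to sensory neurons. Over the 15 lists r ran from 0.246 for the lumbosacral Hox genes to that 0.975, with 0.934 for the neurotrophin and GDNF receptors, 0.907 for meninges and fibroblasts (0.907 also without its 2 farthest arrays), 0.886 for sensory neuron peptides and 0.866 for Schwann cells and satellite glia. Within each genotype there are too few arrays for a coefficient of its own. Over deviations from the genotype mean, r with the channels was 0.942 (two-sided exact permutation p = 0.0295, adjusted 0.137) and rho 0.810 (exact permutation p = 0.0382, adjusted 0.270). Without Nfix+/+ replicates 2 and 4 that r was 0.251 (exact permutation p = 0.646), so the relation within genotypes rests on those 2 arrays. Over deviations, 1 of the 15 lists passed the adjustment by Pearson's r, the neurotrophin and GDNF receptors (r = 0.866, adjusted exact permutation p = 0.0260; rho = 0.643, adjusted 0.270). Without Nfix+/+ replicate 2 and Nfix-/- replicate 4 its r was 0.994. Pirt and the lists were chosen with earlier results of these data known, so these p-values are given as a description only.

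Markers of neighbouring tissues also differed between the genotypes, and their part in the difference of Pirt was not tested. Of 15 genes of meninges and fibroblasts, 7 rose and 0 fell, or 46.7% against 11.5% of all clusters, and 8 of the 15 were above background. The count was 4 after cyclic loess and 3 after quantile normalization. Their mean was 7.70 to 7.81 in Nfix-/- cords and 7.51 to 7.60 in Nfix+/+ cords, without overlap, as in Pirt. Foxc1, a regulator of meningeal development, rose by 0.34 (adjusted p = 0.00424), and Lum, a matrix proteoglycan, by 0.37 (adjusted p = 0.00815). Skeletal muscle had 3 higher and 1 lower of 15, among them the myosin light chain gene Myl1 at 0.72 (adjusted p = 0.0466) and the myogenic regulator Myf5 at -0.44 (adjusted p = 0.00399), with a mean of 5.95 to 6.46 in Nfix-/- cords and 5.74 to 6.22 in Nfix+/+ cords. Without Nfix+/+ replicate 2 the count of higher muscle genes was 0. Cartilage and vertebrae had 1 lower of 14, the matrix gene Matn3 at -0.23 (adjusted p = 0.0243), with a mean of 6.31 to 6.44 in Nfix-/- cords and 6.28 to 6.40 in Nfix+/+ cords. Among 14 genes of microglia, macrophages and blood cells the complement gene C1qc rose by 0.24 (adjusted p = 0.0320), and the mean was 6.43 to 6.51 in Nfix-/- cords and 6.29 to 6.47 in Nfix+/+ cords. Of 12 lumbosacral Hox genes, which mark the caudal end of the cord, Hoxb13 rose by 0.33 (adjusted p = 0.0497) and Hoxd12 fell by 0.42 (adjusted p = 0.0266), with a mean of 5.06 to 6.34 in Nfix-/- cords and 5.44 to 5.94 in Nfix+/+ cords. Sympathetic neurons, the other neurons of peripheral ganglia, had 0 calls of 9 (2 at an unadjusted p under 0.05, 0 by the one-way test), while 2 were lower with array weights, 2 without Nfix+/+ replicate 2 and 3 after cyclic loess. They had means of 6.12 to 6.28 in Nfix-/- cords and 6.07 to 6.31 in Nfix+/+ cords. Their defining enzyme gene Th was above the percentile on 7 arrays, while Phox2a and Hand1 were above it on 0. Of the genes named here as called, Myl1, Myf5, Matn3, C1qc, Hoxb13 and Hoxd12 were below the percentile on all 8 arrays, and Lum was above it on 2 and Foxc1 on 5.

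Neurons of the cord that receive sensory axons were read as well. Of 9 dorsal horn genes, Ptf1a, a regulator of inhibitory neurons, rose by 0.39 (adjusted p = 0.0199) at signals below the percentile on 8 arrays, and 8 did not pass. Lmx1b, a regulator of excitatory dorsal horn neurons, was at 0.14 (adjusted p = 0.0672) without overlap. Of 7 motor neuron genes, Mnx1 fell by 0.30 (adjusted p = 0.0310) at signals below the percentile on 8 arrays, and 6 did not pass. The median difference of that list was -0.02, against 0.19 for Prph, which motor neurons share with sensory neurons. Only 2 of the 7 were above background, however, and 3 of the 7 had a higher mean in Nfix-/- cords. Those above background were Aldh1a2 at 0.25 (adjusted p = 0.0626 from limma) and Ache at 0.21 (adjusted p = 0.0766 from limma), so the median does not describe them. Among the 10 genes of spinal cord tissue, Olig2, a factor of motor neuron and oligodendrocyte progenitors, had log2 signals of 8.22, 8.05, 8.11 and 7.95 in Nfix-/- cords and of 8.51, 8.21, 8.38 and 8.25 in Nfix+/+ cords. The groups overlapped and the difference of -0.25 did not pass (adjusted p = 0.0626 from limma), but it passed without Nfix+/+ replicate 2 (-0.29, adjusted p = 0.0408) and after cyclic loess (-0.34, adjusted p = 0.0236).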

How the data were processed

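Expression was measured on 8 Mouse Transcriptome Arrays of Affymetrix. The authors summarised each transcript cluster with SST-RMA in the Affymetrix Expression Console to give the deposited log2 values, with build mm10 named in the submitters' notes, and they were used here as deposited, without rescaling or imputation. SST-RMA transforms the signal and brings the arrays' distributions closer, so small differences between genotypes are relative to the array as a whole. The deposited distributions still differed, with cluster medians of 5.08 to 5.21 by array. Quantile normalization brought the median difference of the clusters above background from 0.09 to 0.0003. The number of arrays limits the precision. Of 72688 rows, 6732 belonged to control probe sets and entered no test. Of 65956 transcript clusters, 30638 had a single symbol (1) in GEO's annotation of the platform, 2176 had several and 33142 had none, and no gene was named from a cluster with several. A gene with several clusters was read from the one with the highest mean over the 8 arrays. Positions are those of RefSeq genes on GRCm38.p6, the assembly of mm10.

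Genotypes were compared as Nfix-/- minus Nfix+/+ by lmFit and eBayes of limma 3.58.1 (R 4.3.3), without a block and with Benjamini-Hochberg adjustment over all clusters and a threshold of 0.05. It stands in place of the study's unpaired one-way test, which was run as an alternative. The code was tested on simulated data. Correlations of single values used exact permutations in Python 3.11.15, within genotype for deviations. The p-values measure the spread between arrays labelled as biological replicates, and no 2 of the 28 pairs of arrays were identical.

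The 8 genes, the lists and the alternatives were chosen with earlier results of these data known. Of 199 genes in 15 lists, 182 were measured. Apart from the 8 genes, the text names the genes of lowest p in a list, up to 3 or, in a list with no call, 2 and the 10 genes most like Pirt, and the 10 most like the mean of the 8, in their deviations. Tmem119, Csf1r, Tnnt1, Col11a1 and Cnmd, which the rule also gave, are not described. Scn9a, Piezo2, Cacna1h, Gal, Sox10, Th, Elavl3, Dcx and Sox2 were named after their values were seen. Alternatives were median scaling, quantile normalization, cyclic loess, a filter on clusters above background, a trend in eBayes, array weights, the one-way test, a replicate block and leaving out each array.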

Additional observations from a re-analysis of the deposited data

Results flagged for a closer look

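In 8 of 158 groups of 4 arrays tested, 1 array lay apart from the other 3 by more than the critical value of Dixon's ratio at 95%, and chance alone flags about 1 in 20 groups. Of the 8 genes this concerned Runx3, at 5.87 in Nfix+/+ replicate 2 against 6.13 to 6.18 in the other Nfix+/+ arrays. The same array was apart in 3 list means, at 7.07 for sensory neuron peptides and other products (others 7.25 to 7.26), 7.03 for Schwann cells, satellite glia and their precursors (others 7.15 to 7.18) and 6.07 for sympathetic neurons (others 6.27 to 6.31). In Nfix-/- replicate 4 the mean of the Schwann cell list was 7.14 (others 7.24 to 7.25). Single genes were apart in Nfix-/- arrays as well, with Mrgpra3 at 5.28 in replicate 3 (others 5.04 at most), Hoxd13 at 4.10 in replicate 1 (others 3.99 to 4.01) and Rab9b at 7.78 in replicate 1 (others 7.79, all within 0.01). Nfix+/+ replicate 2 and Nfix-/- replicate 4 were the arrays with the highest negative-control median of their genotype, at 4.88 and 4.60, and the part of that in these values was not tested.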

How the results depend on the processing

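The differences of the 8 genes kept their sign in each of the 15 or 16 alternatives run for a gene (125 values in all), each moving by less than 1 SD between replicates. Trpv1, Runx1 and Runx3 have no value in the fit of clusters above background, and each gene had 1 cluster, so a mean over clusters was not run. Pirt did not pass after quantile normalization (0.55), in the one-way test, or without Nfix-/- replicate 2 (0.60) or replicate 3 (0.62). With array weights 2 of the 8 passed, Pirt and Avil, beside 10026 of 65956 clusters that passed upward. Nothing is read from that count. Over all clusters, 14520 passed, 9858 to 15080 with each array left out, and 2500 in the fit of the 11778 above background, which tests fewer clusters. There 97.0% of calls were higher in Nfix-/-, against 52.4% over all clusters.

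Of 46 other sensory neuron genes, 5 passed. The count was 3 after median scaling, 2 after quantile normalization, 1 of 23 in the fit of clusters above background, and 1 to 5 with each array left out, the lowest without Nfix+/+ replicate 3 or Nfix-/- replicate 2. Of the genes called in other lists, Foxc1, Lum, Prrx1 and Myf5 passed in every alternative they entered, and the remaining ones in 4 to 13. Of the 13 Schwann cell and satellite glia genes, where 0 passed, 1 passed with array weights, 2 after cyclic loess, 1 in the one-way test and 0 to 1 with each array left out. The cause was not tested. The r of Pirt with the channel list was 0.927 to 0.989 with each array left out, and this r holds the genotype difference. Over deviations from the genotype mean it was 0.251 without Nfix+/+ replicates 2 and 4.

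Arrays of the same replicate number did not deviate together in all pairs (r of -0.151 to 0.470 over 4 pairs), so the numbers are not taken as pairs. With the replicate block, 11235 clusters passed, 3 of the 46 sensory neuron genes did, and Pirt passed. Signals below the negative-control percentile on all arrays, as for Trpv1, Runx1 and Runx3, limit what their differences can show.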
